A study of Mus musculus with 17 samples.

Results

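The genes of oxidative phosphorylation were followed through 127 of the 66177 accessible regions of the data set. A region was taken when the start that the deposited annotation names for it belongs to a nuclear gene whose symbol begins with Nduf, Cox and a digit, Atp5 or Uqcr, or is Sdha, Sdhb, Sdhc or Sdhd, and when it lay at most 10000 bp from that start. The 127 regions belonged to 84 genes. Of these regions, 75 overlapped the start of a gene and are called start regions, each from a different gene, and 52 lay off the start, 18 upstream and 34 downstream. The farthest region taken lay 9844 bp from the Ndufaf4 start with a mean of 1.79 RPPM, and the nearest left out lay 10046 bp from the Cox4i1 start with a mean of 5.77 RPPM. The choice is by name, so it missed some genes of the pathway. Atp5j shares its start with Gabpa, in a region listed under Gabpa at 132 RPPM in naive, 131 in germinal center and 137 in plasma cells of control mice, and the Uqcrb start is listed under Gm10767.

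Accessibility was measured by ATAC-seq, in which a transposase cuts open chromatin and tags it for sequencing, in 16 libraries from mice of a mixed B6;129S4 strain that carries Dnmt3atm3.1Enl and Dnmt3btm5.1Enl by the labels, while the study's methods name the first allele Dnmt3atm3.2Enl. All mice carried floxed alleles of both de novo DNA methyltransferases, Dnmt3a fl/fl and Dnmt3b fl/fl. Dnmt3-sufficient controls (C) were littermates without Cre recombinase, and Dnmt3-deficient mice (KO) carried Cre in B lineage cells, so that C and KO mice also differ in the presence of Cre. Naive B cells (nB; B220+ Fas- GL7-, 3 C and 2 KO libraries) came from lymph nodes of single unimmunized male mice. Germinal center B cells (GCB; B220+ Fas+ GL7+ and binding phycoerythrin, 2 C and 4 KO libraries) came from lymph nodes of pools of 2 mice, and bone marrow plasma cells (BMPC; CD138+, 3 C and 2 KO libraries) from single female mice, both 30 days after immunization with phycoerythrin in adjuvant. The GCB pools were female, except for a male pool in each genotype. The mice were 8 to 12 weeks old and each library held 3000 to 5000 sorted cells. Immunization cannot be told apart from cell type where nB and GCB are compared, and sex differs there in part. Sex, tissue and immunization cannot where nB and BMPC are compared, and tissue cannot where GCB and BMPC are, with sex again differing in part.

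Oxidative phosphorylation is the last stage of respiration in mitochondria. Complexes I and II pass electrons from NADH and succinate to ubiquinone, complex III passes them on to cytochrome c and complex IV to oxygen, and complexes I, III and IV pump protons across the inner membrane for ATP synthase to use. Nuclear genes encode all of complex II and most subunits of the other complexes, and a handful of core subunits come from mitochondrial DNA. In B cells the demand for ATP changes when resting cells enter the germinal center and again when plasma cells begin to secrete antibody.

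Reads in regions numbered 4104875 to 6079018 in nB libraries, 907959 to 2280954 in GCB libraries and 5357687 to 8232313 in BMPC libraries. Values are RPPM, the reads in a region for every 1000000 reads in all regions of the library, and 1 RPPM in the shallowest library is under 1 read. The GCB libraries were not only shallower. Regions of mitochondrial DNA took 7.43% to 10.1% of their reads, against 3.10% to 4.59% in nB and 2.56% to 3.12% in BMPC, and start regions of all genes took 50.7% to 54.2% of their reads, against 54.2% to 55.0% and 54.4% to 56.8%. Within 2 kb of 5 B cell marker genes the summed accessibility was 194 to 221 RPPM in nB, 133 to 170 in GCB and 42.8 to 47.0 in BMPC. For the 5 plasma cell markers it was 164 to 184, 112 to 131 and 211 to 228, and for the 4 germinal center markers with a region of 5 it was 82.1 to 92.4, 84.6 to 108 and 96.3 to 111, so that the last list did not mark the GCB libraries. None of 5 T cell markers had a region there, 1 of 5 myeloid markers had one, at 3.72 to 5.31 in nB, 0.937 to 2.63 in GCB and 0.560 to 1.43 in BMPC, and 4 of 5 erythroid markers had one, summing to 59.7 to 80.3, 45.7 to 74.8 and 68.2 to 79.1 RPPM. The part of other cells in the results below was not tested. The deletion of Dnmt3a and Dnmt3b was not checked here.

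The start regions hold the promoters of these genes. The 6 promoters below belong to genes of complexes III and IV, ATP synthase and complex I assembly, and were chosen because each holds a short motif of a factor known to act on respiratory genes. They are reference sequence of mm9 from 160 bases before the start, without exon bases, 5′ to 3′ along the gene, with motif letters in capitals. Uqcrh (chr4:115747677-115747835, minus strand) and Uqcr11 (chr10:79869576-79869671, minus strand) hold CCGGAAGT, the core of GABP sites, which is read on the opposite strand in Uqcrh, where CCAAT, the NF-Y core, stands before it. Ndufaf4 (chr4:24825070-24825229, plus strand) holds GCATGCGC, the core of NRF1 sites, on each strand in overlapping positions, followed by a GC-box pair of GGGCGG. Cox18 (chr5:90653027-90653181, minus strand), Cox17 (chr16:38346925-38347076, plus strand) and Atp5g3 (chr2:73749384-73749511, minus strand) hold AAGGTCA, the core bound by estrogen-related receptors (ERR), which is on the opposite strand in the last 2.
Uqcrh: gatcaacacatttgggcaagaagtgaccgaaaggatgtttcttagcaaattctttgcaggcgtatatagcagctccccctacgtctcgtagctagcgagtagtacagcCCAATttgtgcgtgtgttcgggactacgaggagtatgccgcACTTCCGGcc
Uqcr11: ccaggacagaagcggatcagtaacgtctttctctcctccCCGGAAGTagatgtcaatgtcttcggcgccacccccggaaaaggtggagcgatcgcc
Ndufaf4: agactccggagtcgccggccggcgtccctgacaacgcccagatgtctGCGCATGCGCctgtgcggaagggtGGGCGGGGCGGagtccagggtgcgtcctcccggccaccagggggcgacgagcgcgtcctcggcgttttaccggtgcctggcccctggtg
Cox18: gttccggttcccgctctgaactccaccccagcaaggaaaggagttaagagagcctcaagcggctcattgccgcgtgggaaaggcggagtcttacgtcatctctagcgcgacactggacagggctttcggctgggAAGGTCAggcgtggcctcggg
Cox17: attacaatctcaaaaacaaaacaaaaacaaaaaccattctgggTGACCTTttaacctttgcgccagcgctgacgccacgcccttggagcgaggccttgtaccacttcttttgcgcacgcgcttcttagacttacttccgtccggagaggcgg
Atp5g3: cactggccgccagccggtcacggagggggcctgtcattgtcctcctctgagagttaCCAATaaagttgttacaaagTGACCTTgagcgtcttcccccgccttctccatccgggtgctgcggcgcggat

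Over windows from 250 bases before to 50 after the start, searched on both strands, the ERR core occurred in 11 of the 75 start regions (14.7%) and in 2.62% of 11643 start windows of all genes. It was present at Atp5e, Atp5g3, Atp5k, Cox17, Cox18, Ndufb2, Ndufb4, Ndufs1, Ndufs5, Sdhd and Uqcrq, which span 4 of the complexes and complex IV assembly. The YY1 core AAGATGGC occurred in 12 (16.0%, against 4.54% of all windows), at complex I genes such as Ndufa9 and Ndufb8 and at Sdhc and Cox10. The NRF1 core occurred in 8 (10.7%, against 4.87%) and the GABP core in 9 (12.0%, against 8.0%). The CCAAT core was in 28 (37.3%, against 37.0%) and the CREB core TGACGTCA in 3 (4.0%, against 3.19%). The SP1 core GGGCGG was in 35 (46.7%, against 67.0%), at a median GC content of 58.3% against 61.7%, and the E-box of MYC, CACGTG, in 5 (6.67%, against 10.2%). These shares describe letters in fixed windows. They were not tested, and a match is not a bound site.

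**Figure D1:**
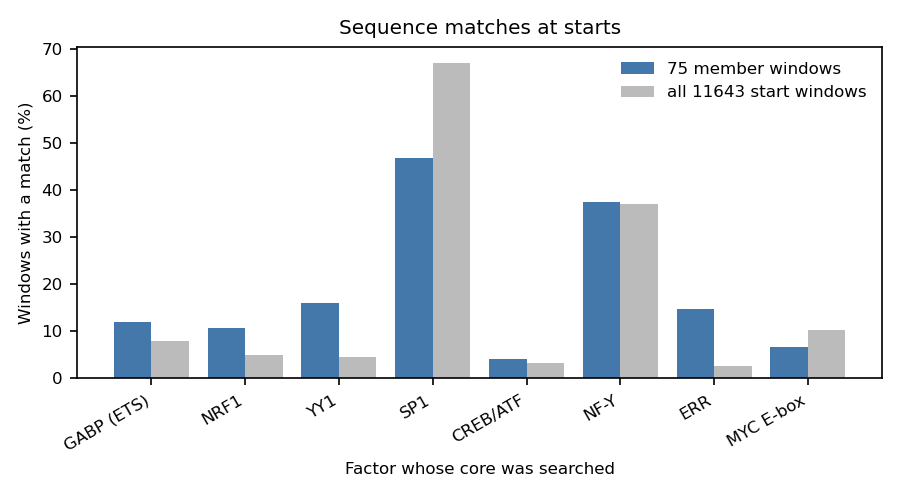
Share of promoter windows, in percent, that hold each motif core on either strand, for the 75 start regions of oxidative phosphorylation genes and for the 11643 start windows of all genes. The ERR and YY1 cores stand at 14.7% and 16.0% in the former against 2.62% and 4.54% in the latter, whereas the GGGCGG core is less frequent.

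Start regions of these genes held reads in every library and varied less than start regions at large. Their median width was 998 bp (496 to 1961 bp) against 1046 bp for the start regions of all genes, their mean accessibility over all libraries had a median of 43.5 RPPM (12.7 to 117 RPPM) against 37.1 RPPM for the start regions of all genes, and 23 of them also carried the promoter of a second gene. No start region had fewer than 8 reads in any GCB library, 26 in any nB library or 40 in any BMPC library. Per kilobase of region, the highest levels were at Atp5g1, a gene for the c subunit of the ATP synthase rotor (99.5 RPPM per kb), Cox18, which inserts a complex IV subunit into the membrane (85.4), Atp5b, the catalytic beta subunit (82.1), and Uqcrq, a small subunit of complex III (75.9). The lowest were at Cox6b2, a testis isoform of complex IV (12.0), Ndufa1 on the X chromosome (16.2) and Cox6c (18.5). The ratio of the highest to the lowest group mean had a median of 1.48 over the 75 start regions, against 1.76 over all start regions. The 52 regions off the start were narrower, with a median of 399.5 bp, weaker, with a median of 5.27 RPPM, and more variable, with a median ratio of 2.48 against 4.57 for all regions off a start.

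Summed over the 75 start regions, accessibility was lower in GCB than in nB or BMPC. It was 3697 ± 25.6 RPPM (SD, n = 3) in C nB, 2977 ± 46.9 (n = 2) in C GCB and 3838 ± 48.5 (n = 3) in C BMPC, and in KO mice 3681 ± 44.2 (n = 2), 2899 ± 114 (n = 4) and 3725 ± 11.7 (n = 2). The 6 GCB libraries ranged from 2777 to 3011 RPPM, below the 5 nB libraries (3650 to 3715) and the 5 BMPC libraries (3717 to 3894), with no overlap. Relative to the reads in start regions of all genes, these 75 took 0.547% to 0.584% in GCB, 0.665% to 0.685% in nB and 0.673% to 0.686% in BMPC, so GCB stood apart on that scale too, while nB and BMPC overlapped. At single genes, all 6 GCB libraries lay below all nB and BMPC libraries in 32 of the 75 start regions (28.5% of all start regions did so) and above them in 2, Cox6b2 and Ndufaf2 (4.89%). In bulk cells, a lower signal in every cell and a closed promoter in a part of the cells cannot be told apart.

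**Figure D2:**
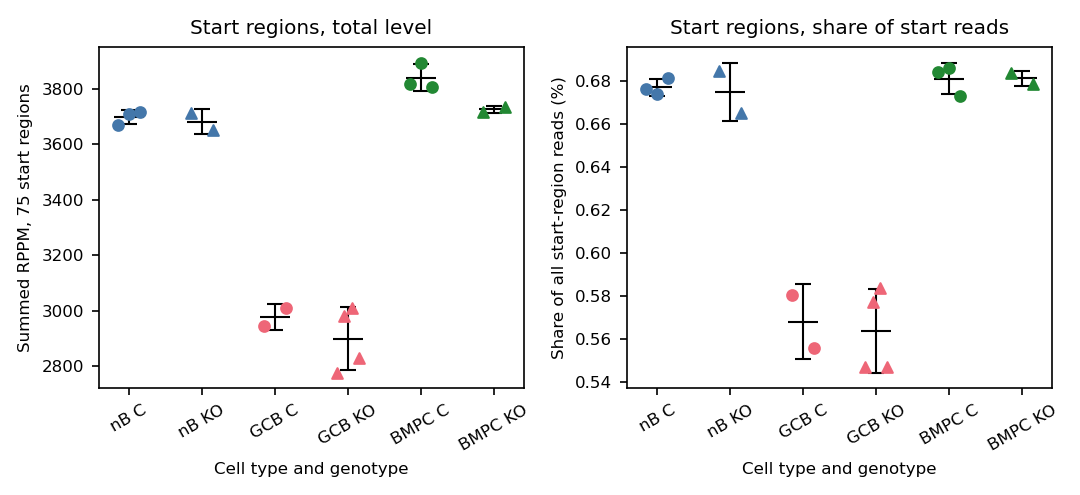
Summed accessibility, in RPPM, of the 75 start regions of oxidative phosphorylation genes in each of the 16 libraries, grouped by cell type and genotype, with 1 point per library. The 6 GCB libraries lie between 2777 and 3011 RPPM, and the nB and BMPC libraries between 3650 and 3894.

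The first comparison was between nB and GCB of C mice. A region was called if RPPM + 1 changed 2-fold or more and the limma p-value, once adjusted, was 0.01 or lower. The limma fit was on log2(RPPM + 1), with p-values adjusted by Benjamini-Hochberg over all 66177 regions. Adding 1 makes the rule stricter for weak regions than for strong ones. By this rule 5 start regions fell in GCB (6.79% of all start regions were called lower) and 1 rose (7.72% called higher). The 5 were those of Ndufb8, Atp5sl, Cox6c, Uqcr11 and Cox5b. They cover an accessory subunit of complex I, an assembly factor of complex I, subunits of complex IV and a small subunit of complex III. The called split of 5 lower and 1 higher was 6 and 1 with TMM scaling and 4 and 1 with quantile normalization. It was 7 and 1 with edgeR or DESeq2, and 2 and 1 with a pseudocount of 5 RPPM. Smaller shifts were widespread. With an adjusted p of at most 0.05 and no limit on the fold, 37 start regions were lower in GCB (37.9% of all start regions) and 3 were higher (15.7%), and the median log2 fold change was −0.35, against −0.21 over all start regions. Quantile normalization, which moved the median of all regions by −0.11, left 21 lower and 7 higher, at a median of −0.16. Scaling to reads outside mitochondrial DNA (chrM) left 30 lower and 3 higher, at a median of −0.28. Here and below, shares of all regions are those of the main test unless another test is named beside them. Counts under other scalings thus have no such share to be read against.

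At the Ndufb8 start (chr19:44629651-44630225) the 3 C nB libraries gave 22.4, 20.9 and 22.2 RPPM and the 2 C GCB libraries 10.1 and 6.56. The Atp5sl start (chr7:26403944-26404791) gave 56.5, 51.2 and 54.0 RPPM in nB and 25.5 and 17.8 in GCB. In both regions the groups were far apart. The log2 fold changes were −1.32 (SE 0.21, limma adjusted p = 1.3e-05) at Ndufb8 and −1.30 (SE 0.17, adjusted p = 4.1e-07) at Atp5sl. The Cox5b start (chr1:36747989-36748783), of a complex IV subunit that binds zinc, gave 36.1, 44.5 and 43.2 RPPM in nB and 17.6 and 20.6 in GCB, with log2 fold change −1.07 (SE 0.14, adjusted p = 9.8e-07), or −0.96 without C GCB replicate 1, below the 2-fold limit. The Uqcr11 start, whose promoter is printed above with the GABP core, gave 20.0, 25.4 and 27.0 RPPM in nB and 10.1 and 11.2 in GCB, with log2 fold change −1.10 (SE 0.22, adjusted p = 0.00021). At Cox6c the 2 GCB libraries differed, with 3.52 and 7.96 RPPM against 13.2 to 16.3 in nB. Its log2 fold change of −1.25 (SE 0.24, adjusted p = 0.00012) rested on the first of them, since without C GCB replicate 1 it was −0.76 with an adjusted p of 0.023, and the call was lost.

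By complex, the counts stand beside the 37.9% of all start regions that were lower at the adjusted p of 0.05. In complex IV, 8 of 11 start regions of subunits passed the adjusted p of 0.05, all lower in GCB. The median log2 fold change of the 11 was −0.56. Among them the Cox7a2 start was about level, with means of 53.3 RPPM in nB and 53.8 in GCB. The 7 start regions of complex III had a median of −0.49, with 6 passing, from Uqcr11 and Uqcrfs1, the Rieske iron-sulfur protein (−0.61, adjusted p = 0.0023), to Uqcrh (−0.25, adjusted p = 0.039). For the 5 core subunits of complex I the median was −0.48 and 4 passed, among them Ndufs1 (−0.73, adjusted p = 7.3e-06) and Ndufv1 (−0.72, adjusted p = 0.00014), which carry iron-sulfur clusters, and Ndufv1 also the flavin that accepts electrons from NADH. For the 23 accessory subunits the median was −0.36, with 11 lower and 1 higher at that threshold. The 4 subunits of complex II had a median of −0.19, with Sdhc passing. The 11 start regions of ATP synthase had a median of −0.08 and 3 passed, Atp5d (−0.89, adjusted p = 1.6e-06), Atp5h (−0.70, adjusted p = 0.0012) and Atp5g1 (−0.47, adjusted p = 0.00021). Atp5d encodes the delta subunit of the rotating stalk and Atp5h a subunit of the fixed stalk. No difference between complexes was tested.

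**Figure D3:**
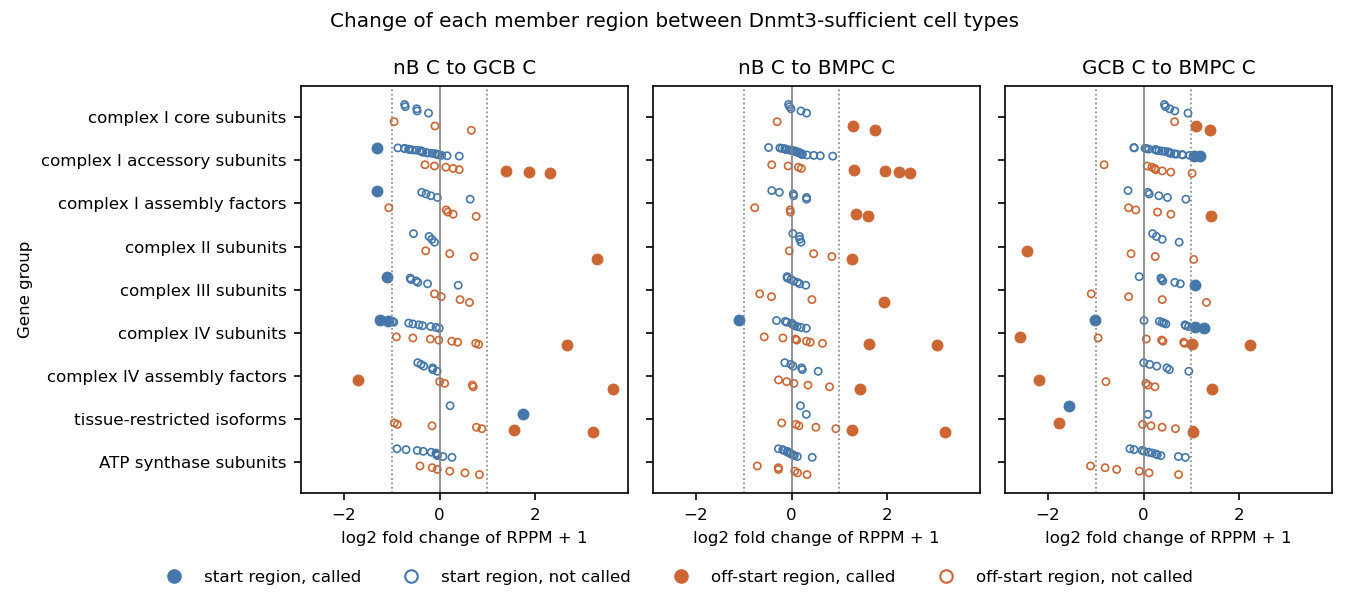
Log2 fold change of each of the 127 regions on log2(RPPM + 1) in the comparisons of cell types in C mice, by gene group. Each point is 1 region, colored by whether it lies at or off the start, and filled if called. Medians of start regions are not drawn. From nB to GCB they run from −0.56 for complex IV subunits to −0.08 for ATP synthase. From GCB to BMPC they run from 0.18 for ATP synthase to 0.55 for complex I core subunits, leaving out the 2 tissue-restricted isoforms.

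From GCB to BMPC in C mice most of these promoters were higher, and by their median so were the start regions of all genes. Called increases came at 5 start regions (11.2% of all start regions were called higher), Cox6c, Ndufb8, Uqcr11, Cox6a1 and Ndufb10, and called decreases at 2 (5.21% called lower), Cox6b2 and Cox7c. At an adjusted p of at most 0.05, 44 of the 75 were higher (46.8% of all start regions) and 3 lower (12.3%), with a median log2 fold change of 0.39 against 0.33 over all start regions. With quantile normalization, which moved the median of all regions by 0.14, 25 were higher and 7 lower. The called split of 5 higher and 2 lower was 6 and 1 with TMM scaling, 3 and 2 with quantile normalization or scaling to reads outside chrM, 8 and 1 with edgeR, DESeq2 or without C GCB replicate 1, and 0 and 1 with a pseudocount of 5 RPPM. This comparison shares its GCB libraries with the one before.

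At Ndufb8 the 3 C BMPC libraries gave 19.4, 21.2 and 18.5 RPPM, about the level of nB and above both GCB libraries (log2 fold change 1.17, SE 0.21, adjusted p = 3.8e-05). At Cox6a1 (chr5:115798734-115799558), the widely expressed isoform of complex IV subunit 6a, they gave 42.1, 45.1 and 43.1 RPPM against 21.1 and 19.2 in GCB (log2 fold change 1.07, SE 0.17, adjusted p = 5.0e-06). At Ndufb10 the values were 31.1, 32.1 and 29.9 RPPM against 12.8 and 16.4 (1.05, SE 0.19, adjusted p = 4.2e-05). Again the groups did not overlap. Without C GCB replicate 1 the fold change was 0.88 at Ndufb10 and 0.77 at Cox6c, and without C GCB replicate 2 it was 0.89 at Ndufb8, all below the 2-fold limit. By complex, 5 of 5 core and 14 of 23 accessory start regions of complex I, 6 of 7 of complex III, 8 of 11 of complex IV and 4 of 11 of ATP synthase were higher at the adjusted p of 0.05, beside the 46.8% of all start regions.

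Between nB and BMPC of C mice, 8 of the 75 start regions were higher and 3 lower at an adjusted p of at most 0.05. With edgeR the counts were 15 and 5, and with DESeq2 13 and 4. The share of all start regions at that threshold is not given here for this comparison. None of the 75 was called higher (9.33% of all start regions were) and 1 was called lower (4.24%). The 1 was Cox7c, a small subunit of complex IV, at chr13:86185737-86186729. Its libraries gave 65.0, 73.5 and 65.9 RPPM in nB, 66.4 and 62.8 in GCB and 35.5, 29.0 and 29.4 in BMPC. The BMPC values lay below every library of the other cell types, and the log2 fold change from nB was −1.10 (SE 0.11, adjusted p = 1.3e-09). From GCB it was −1.03 (SE 0.12, adjusted p = 6.4e-08), which moved to −0.99 without C GCB replicate 1, −0.98 without C BMPC replicate 2, −0.99 without C BMPC replicate 3 and −0.97 with TMM scaling, all short of the 2-fold limit. Below the 2-fold limit, Ndufa13, an accessory subunit of complex I also known as Grim19, gave 60.9, 48.2 and 51.4 RPPM in nB, 48.8 and 61.8 in GCB and 93.5, 99.6 and 99.3 in BMPC (nB to BMPC 0.86, adjusted p = 1.6e-07). Cox15, which makes the heme of complex IV, was higher in BMPC too (48.0 ± 2.63 and 71.1 ± 3.54 RPPM, SD, n = 3 in nB and 3 in BMPC, limma log2 fold change 0.56, adjusted p = 0.00027). Ndufa1, Ndufb11 and Cox7b lie on the X chromosome, of which the male nB mice have a single copy and the female BMPC mice a pair. Their start regions had log2 fold changes from nB to BMPC of 0.60 (adjusted p = 0.013), 0.04 (0.83) and −0.32 (0.16).

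Regions off the start changed more than the promoters. In C mice 21 of the 52 were called in at least 1 comparison of cell types, against 9 of the 75 start regions, and the same shares over all genes were 57.1% and 27.2%. Among the 52, 18 lay in introns only and 19 overlapped no annotated gene feature, and for 10 the nearest transcript belonged to another gene. The regions below lie in introns of Sdhb, the iron-sulfur subunit of complex II, of Ndufab1, the acyl carrier protein of complex I, and of Ndufa4, a complex IV subunit first assigned to complex I. They are shown whole because each was nearly closed in nB, and they opened in different cell types. They are mm9 reference sequence, Sdhb at chr4:140518785-140519060 on the plus strand, Ndufab1 at chr7:129244236-129244522 and Ndufa4 at chr6:11854384-11854575 on the minus strand, 1598, 839 and 2870 bp downstream of the starts. None of the 7 motif cores searched off the start was found in them, so no letters stand in capitals.
Sdhb intron: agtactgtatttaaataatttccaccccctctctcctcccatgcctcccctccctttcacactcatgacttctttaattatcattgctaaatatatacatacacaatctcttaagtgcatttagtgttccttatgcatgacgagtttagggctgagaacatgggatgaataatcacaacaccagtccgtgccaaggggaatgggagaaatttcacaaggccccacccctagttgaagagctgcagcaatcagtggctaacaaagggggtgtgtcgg
Ndufab1 intron: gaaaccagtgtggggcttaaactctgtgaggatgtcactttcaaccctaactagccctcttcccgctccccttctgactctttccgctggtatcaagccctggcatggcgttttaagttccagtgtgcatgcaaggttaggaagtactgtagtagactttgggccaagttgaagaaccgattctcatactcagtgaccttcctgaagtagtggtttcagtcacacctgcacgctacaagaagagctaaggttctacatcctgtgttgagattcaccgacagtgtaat
Ndufa4 intron: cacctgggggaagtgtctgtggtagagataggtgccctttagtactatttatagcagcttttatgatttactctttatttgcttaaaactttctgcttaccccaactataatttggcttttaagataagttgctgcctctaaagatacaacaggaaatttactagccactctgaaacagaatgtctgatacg

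Those 7 cores were searched on both strands in the central 160 bases of regions off the start. ATGCAAAT, the octamer bound by OCT2, was in 2 of the 52 (3.85%, against 2.80% of 54248 windows), 3474 bp downstream of Cox17 and 9157 bp downstream of Ndufv3. The PU.1 core GAGGAAGT was in 2 (3.85%, against 5.28%), the E2A E-box CAGCTG in 3 (5.77%, against 12.8%), the AP-1 core TGANTCA in 1 (1.92%, against 5.72%) and the NF-kB core GGGNNTTCC in 1 (1.92%, against 3.37%). AAGTGAAA, shared by IRF4 and BLIMP1, and the RUNX core TGTGGTT were in none (3.45% and 6.74% of all windows).

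From nB to GCB in C mice 8 of the 52 rose (15.6% of all regions off a start were called higher) and 1 fell (8.82% called lower), a split that quantile normalization turned to 8 and 5. The largest rise was in the region 3474 bp downstream of the start of Cox17 (chr16:38350560-38351111), the copper chaperone of complex IV. The nB libraries gave 1.71, 1.13 and 1.12 RPPM, the GCB libraries 35.6 and 21.1 and the BMPC libraries 5.20, 4.93 and 5.61, so that both GCB values stood above all others. The log2 fold change from nB was 3.63 (SE 0.26, adjusted p = 1.2e-11) to GCB and 1.44 (SE 0.23, adjusted p = 5.4e-06) to BMPC. The Cox17 start did not follow, with means of 42.5, 31.0 and 43.4 RPPM in the 3 cell types, nor did the region 5816 bp downstream (chr16:38352902-38353181). The latter gave 6.09, 4.15 and 5.02 RPPM in nB and 1.32 and 0.468 in GCB, and fell by 1.71 on the log2 scale (SE 0.33, adjusted p = 0.00012). Its GCB values are 3 reads and 1 read. In KO mice this fall was not called, with means of 4.73 RPPM in nB and 2.55 in GCB.

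The Sdhb intron printed above showed a germinal center pattern as well. It gave 0.731, 0.565 and 0.186 RPPM in nB, 12.8 and 14.1 in GCB and 1.56, 2.01 and 1.40 in BMPC. The nB values are 7 reads in all and the GCB values 59, a ratio of 28.3 with a 95% exact interval of 12.9 to 73.4 for counting error alone, and the log2 fold change was 3.29 (SE 0.31, adjusted p = 2.1e-09). It fell by 2.44 on the log2 scale from GCB to BMPC (SE 0.31, adjusted p = 1.9e-07). A region 5751 bp downstream of the Cox6b1 start (chr7:31405203-31405418), in an intron, gave 0.487, 0.565 and 0.372 RPPM in nB, 9.24 and 7.49 in GCB and 0.130, 1.28 and 0.467 in BMPC. The ratio of GCB to nB was 17.7 (7.80 to 47.1), and log2 fold changes were 2.66 (SE 0.41, adjusted p = 8.6e-06) from nB to GCB and −2.58 (SE 0.41, adjusted p = 8.1e-06) from GCB to BMPC. The Cox6b1 start had the opposite order, with means of 29.1, 14.3 and 27.0 RPPM in nB, GCB and BMPC.

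Other regions were open in GCB and BMPC alike. Around Cox4i2, a lung isoform of complex IV subunit 4, the region 996 bp downstream of the start (chr2:152581827-152583019) gave 2.19, 2.26 and 2.42 RPPM in nB, 31.7 and 27.6 in GCB and 30.3, 27.9 and 29.3 in BMPC. Its log2 fold changes from nB were 3.22 (SE 0.19, adjusted p = 5.2e-13) and 3.20 (SE 0.17, adjusted p = 1.1e-14), and that from GCB to BMPC was −0.02. The Ndufab1 intron printed above gave 0.731, 0.188 and 0.186 RPPM in nB, 7.48 and 4.22 in GCB and 4.94, 9.49 and 5.76 in BMPC. That is a rise over nB by a ratio of 17.4 (6.59 to 58.2) in GCB and 19.2 (8.0 to 60.1) in BMPC. A second region at Ndufab1, 8733 bp downstream (chr7:129230428-129231511) and outside annotated gene features, rose from 12.4 RPPM in nB to 47.6 in GCB and 62.8 in BMPC (log2 fold changes 1.86 and 2.25, adjusted p = 3.8e-09 and 2.6e-12). The intron region 9157 bp downstream of the Ndufv3 start gave means of 1.24, 4.95 and 7.65 RPPM, with log2 fold changes of 1.39 (adjusted p = 0.0011) and 1.96 (adjusted p = 1.8e-06). The first of these was 1.09 with an adjusted p of 0.037 without C GCB replicate 1.

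From nB to BMPC in C mice 15 of the 52 rose (19.8% of all regions off a start were called higher) and none fell (23.5% called lower), at a median log2 fold change of 0.26 against −0.03. The Ndufa4 intron was the largest of those not open in GCB. It gave 0.244, 0.188 and 0.186 RPPM in nB, 1 read in each library, 0.880 and 1.41 in GCB and 7.80, 10.4 and 8.56 in BMPC. The ratio of BMPC to nB was 43.3 with an interval of 14.6 to 212, and the log2 fold change was 3.03 from nB (SE 0.32, adjusted p = 4.0e-09) and 2.21 from GCB (SE 0.35, adjusted p = 7.4e-06). The Ndufa4 start, by contrast, had means of 93.8, 72.9 and 98.0 RPPM. At Ndufs3, a core subunit of complex I, the region 814 bp downstream of the start gave 2.68, 1.51 and 2.79 RPPM in nB and 8.06, 9.85 and 12.6 in BMPC (1.75, SE 0.30, adjusted p = 1.1e-05). Upstream of Uqcrfs1 by 6384 bp, nB had 4 reads in all and BMPC 76, a ratio of 14.3 (5.38 to 54.0). The regions 5944 bp upstream of Ndufv1 and 3435 bp downstream of Sdhb went from 6.56 to 17.0 RPPM (1.29, adjusted p = 3.8e-05) and from 8.85 to 22.6 RPPM (1.26, adjusted p = 0.00080).

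The remaining called increases from nB to BMPC were at Ndufaf6, which helps to assemble complex I, at Cox7b, at Ndufv3 and near Ndufa4l2. The 2 regions upstream of Ndufaf6 went from 2.83 to 10.5 RPPM (6338 bp, log2 fold change 1.59) and from 1.73 to 5.94 RPPM (5600 bp, 1.34), and the Cox7b intron on the X chromosome from 0.987 to 5.12 RPPM (1.61). The region 7990 bp downstream of Ndufv3 went from 0.392 to 2.41 RPPM (1.30) and the one 5192 bp upstream of Ndufa4l2, whose nearest transcript is that of Stac3, from 25.4 to 62.5 RPPM (1.27, adjusted p = 5.6e-10). Calls at Ndufaf6 5600 bp upstream and at Ndufv3 7990 bp downstream lay near the threshold, since adjusted p-values rose to 0.014 to 0.021 and 0.010 to 0.014 without C nB replicate 1 or 2 or C BMPC replicate 2, and to 0.018 at Ndufaf6 without C BMPC replicate 3.

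From GCB to BMPC in C mice 7 of the 52 rose (11.3% of all regions off a start called higher) and 4 fell (22.1% called lower), or 4 and 4 with scaling to reads outside chrM. The 4 that fell were the Cox17, Sdhb and Cox6b1 regions described above and the one 6132 bp upstream of Cox8c, a testis isoform of complex IV subunit 8, which gave 3.17, 2.07 and 2.23 RPPM in nB, 10.1 and 8.43 in GCB and 1.82, 2.74 and 1.56 in BMPC. Of the 7 that rose, the Ndufa4 intron and the region upstream of Ndufv1 (5.90 to 17.0 RPPM, 1.38, adjusted p = 8.5e-05) kept their calls when any library was left out. The other 5 did not. Without C GCB replicate 2 the values were 0.59 at Ndufaf6 6338 bp upstream (adjusted p = 0.27), 0.81 at Ndufs3 (0.11) and 1.11 at Cox17 5816 bp downstream (0.023). Without C BMPC replicate 2 the adjusted p was 0.017 at Ndufaf6 and 0.019 at Ndufs3, and at Ndufs3 it was 0.043 without C BMPC replicate 3 and 0.011 without either KO BMPC library. At Cox5a 2674 bp downstream it was 0.056 without C GCB replicate 1, 0.011 without C BMPC replicate 1 and 0.016 without C BMPC replicate 3, and at Cox6a2 1785 bp upstream it was 0.011 to 0.039 when any of the 5 libraries compared was left out.

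**Figure D4:**
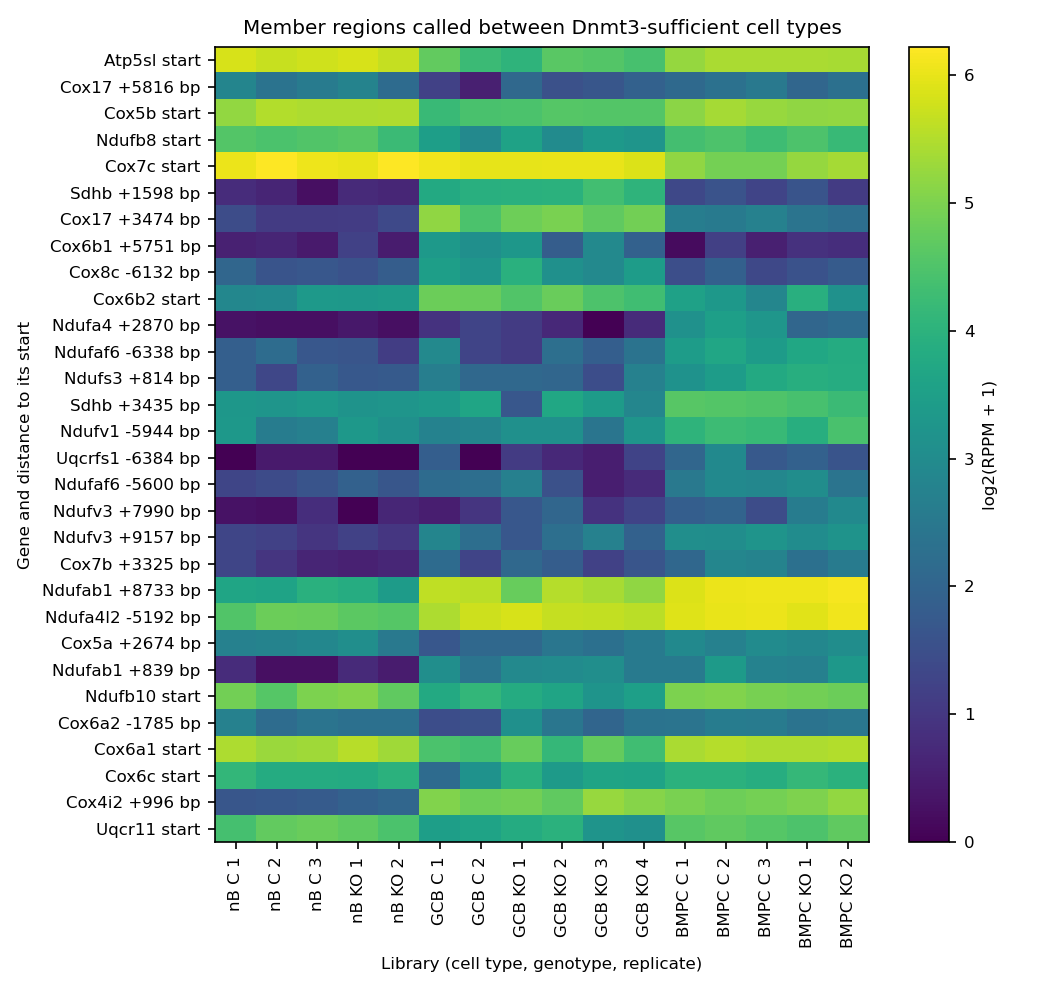
Accessibility of the member regions called in a comparison of cell types in C mice, as log2(RPPM + 1), with regions in rows and the 16 libraries in columns by cell type and genotype. The Cox17, Sdhb, Cox6b1 and Cox8c regions off the start are high in GCB, Cox4i2 and Ndufab1 in GCB and BMPC, and the Ndufa4 intron in BMPC.

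Several subunits exist as isoforms that are used in different tissues. In the 8 families with regions here, the widely expressed forms that had a start region were open there in every cell type of C mice. Cox4i1 had no region among those taken, and Atp5g2 only the region 5148 bp downstream of its start. Means in nB, GCB and BMPC were 40.1, 20.2 and 43.4 RPPM for Cox6a1 and 29.1, 14.3 and 27.0 for Cox6b1. At Cox7a2 they were 53.3, 53.8 and 53.3, and at Cox7b 20.9, 12.9 and 16.5. At Cox8a they were 57.8, 42.5 and 59.0, and at Ndufa4 93.8, 72.9 and 98.0. The c subunit genes Atp5g1 and Atp5g3 had 118, 84.7 and 103 and 43.5, 45.6 and 58.9 RPPM, and Cox7a2l, which acts in supercomplexes of complexes III and IV, 64.0, 56.0 and 73.4. Of the tissue-restricted forms, only Cox7a1 (17.3, 20.3 and 21.7 RPPM) and Cox6b2 had a start region among these regions. Cox6b2 was the start region that rose in GCB, from 6.33, 6.78 and 9.12 RPPM in nB to 27.3 and 26.7, and back to 10.8, 8.94 and 6.23 in BMPC. Its log2 fold changes were 1.75 (SE 0.24, adjusted p = 1.5e-06) and −1.56 (SE 0.24, adjusted p = 4.7e-06). That region also overlaps Fam71e2, whose transcript is the nearest in the annotation, and the part of each gene in the signal cannot be told apart.

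All 4 start regions of complex II had their lowest mean in GCB. In nB, GCB and BMPC of C mice the means were 55.3, 47.2 and 62.1 RPPM at Sdha, the flavoprotein that oxidizes succinate, 52.6, 48.9 and 59.0 at Sdhb, 49.3, 33.7 and 56.6 at Sdhc and 52.5, 46.7 and 53.5 at Sdhd, which anchors the complex in the membrane together with Sdhc. From GCB to BMPC, Sdhc (0.74, adjusted p = 0.00089) and Sdha (0.39, adjusted p = 0.011) passed the adjusted p of 0.05 and Sdhb (0.27, adjusted p = 0.13) and Sdhd (0.19, adjusted p = 0.21) did not. The Sdhb intron printed above was highest in GCB, whereas the Sdhb start and the region 3435 bp downstream had their highest means in BMPC.

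In KO mice the comparisons of cell types gave 18 called regions of the 127 from nB to GCB (26.3% of all regions were called), 14 from nB to BMPC (35.3%) and 21 from GCB to BMPC (32.0%). Of the 15 called from nB to GCB in C mice, 12 (80%) were called in KO mice in the same direction, which is 66.7% of the 18. For nB to BMPC the shared calls were 12 of 16 (75%) and of 14 (85.7%), and for GCB to BMPC 12 of 18 (66.7%) and of 21 (57.1%). The same overlap over all regions is not given here, so these shares are not read as particular to these genes. The Cox17 region 3474 bp downstream gave 1.15 and 1.57 RPPM in KO nB, 25.0 to 30.6 with a median of 28.1 in the 4 KO GCB libraries and 4.25 and 3.73 in KO BMPC. Start regions called lower from nB to GCB in KO mice were 7 (6.93% of all start regions), those of Atp5sl, Ndufb10, Cox6b1, Ndufb8, Atp5d, Uqcr11 and Atp5h, at log2 fold changes of −1.35 to −1.0. The count was 11 with TMM scaling, edgeR or DESeq2, 5 with quantile normalization, 4 with scaling to reads outside chrM and 2 with a pseudocount of 5 RPPM. Of these, Ndufb8 (−0.95) fell below the 2-fold limit without KO nB replicate 1, Atp5d (−0.96) without KO GCB replicate 3, Uqcr11 (−0.90 to −0.93) without KO nB replicate 1 or KO GCB replicate 3 or 4, and Atp5h (−0.85 to −0.97) without KO nB replicate 1 or KO GCB replicate 1 or 4. The Uqcrfs1 region had 0 reads in the 2 KO nB libraries and 34 in KO BMPC, which is 9.31-fold against a floor of 3 reads over the group. When the counting error of both groups is taken, the lower 95% exact limit of the ratio was 7.17. Ndufa13 was called higher in KO BMPC than in KO nB (45.1 and 91.9 RPPM, 1.01, adjusted p = 5.2e-07), which fell below the 2-fold limit without KO nB replicate 2 (0.93) or KO BMPC replicate 2 (0.92).

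In the main test, loss of Dnmt3a and Dnmt3b called no region of these genes in any cell type. The limma counts were 0 of 127 in nB, GCB and BMPC, where 0%, 0.0317% and 0.104% of all regions were called. For each interaction of genotype with cell type the count was 0 of 127 too. The share of all regions called for the interactions is not given here, so that count is not read as particular to these genes. At an unadjusted p under 0.05 the counts were 0, 14 and 3, against 1.67%, 11.8% and 9.55% of all regions. With edgeR's quasi-likelihood test on the reads the called counts were 0, 0 and 1 (0.0106%, 0.00151% and 1.81% of all regions), and 0, 9 and 12 had an unadjusted p under 0.05 (4.55%, 6.40% and 19.3%). DESeq2 called none (0.00151%, 0% and 0.777%), with 0, 8 and 9 at that p (2.38%, 4.83% and 13.7%). Log2 fold changes of the 75 start regions ran from −0.27 to 0.29 in nB, −0.45 to 0.97 in GCB and −0.24 to 0.29 in BMPC, at a median SE of 0.14, 0.13 and 0.14. Apart from Cox6c in GCB, all lay within 0.5 on the log2 scale.

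The smallest p-value within GCB was at the Cox6c start and that within BMPC at the Ndufa4 intron. Cox6c gave 3.52 and 7.96 RPPM in C GCB and 14.3, 9.55, 11.4 and 11.2 in KO GCB, with no overlap and log2 fold change 0.97 (SE 0.23, limma adjusted p = 0.065). The Ndufa4 intron gave 7.80, 10.4 and 8.56 RPPM in C BMPC and 3.16 and 3.55 in KO BMPC, lower in both KO libraries, with log2 fold change −1.18 (SE 0.35, limma adjusted p = 0.13). This is the region that edgeR called, at −1.48 and an adjusted p of 0.00079 by the quasi-likelihood test, while DESeq2 gave −1.47 at 0.033 and did not call it. Next were, in GCB, the regions 6305 bp upstream of Ndufa4l2 (8.38 and 15.5 RPPM, adjusted p = 0.10) and 1785 bp upstream of Cox6a2 (1.82 and 4.86 RPPM, adjusted p = 0.16), and in BMPC the region 7990 bp downstream of Ndufv3 (2.41 and 5.91 RPPM, adjusted p = 0.28) and the Cox7c start (31.3 and 38.4 RPPM, adjusted p = 0.38). In nB the 3 smallest were Ndufa13, Atp5j2 and Cox19, at log2 fold changes of −0.24 to −0.27 and an adjusted p of 1.

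**Figure D5:**
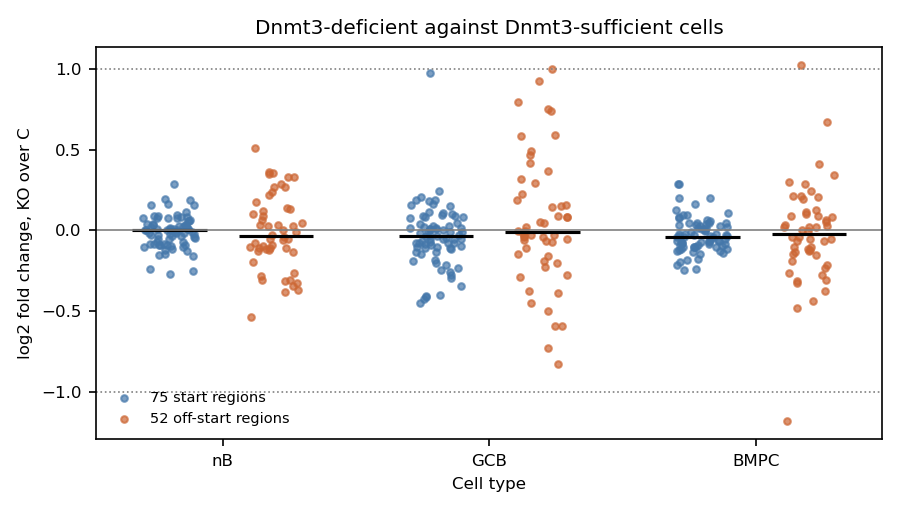
Log2 fold change from C to KO of the 127 regions of oxidative phosphorylation genes in nB, GCB and BMPC on log2(RPPM + 1), with 1 point per region, split into regions at and off the start. None passed the adjusted p of 0.01, and the farthest points are the Ndufa4 intron and the region 7990 bp downstream of Ndufv3 in BMPC (−1.18 and 1.03) and the Cox6a2 and Cox6c regions in GCB (1.0 and 0.97).

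Other genes of the pathway were taken from a pair of lists, 29 genes of electron carriers and further assembly factors, of which 22 had 33 regions within 10000 bp, and 19 regulators of the genes and of mitochondrial DNA, of which 17 had 38 regions. From nB to GCB in C mice 2 regions of the first list rose and 5 fell, and 1 of the second rose and 6 fell, where 14.2% of all regions were called higher and 8.47% lower. From nB to BMPC the counts were 3 and 2 and 3 and 4 (18.0% and 20.1% of all regions), from GCB to BMPC 4 and 1 and 3 and 4 (11.3% and 19.1%), and no region was called between genotypes. The start of Nrf1 (chr6:29997296-29998787), the factor whose core is printed above at Ndufaf4, had means of 78.6 RPPM in nB, 28.4 in GCB and 80.2 in BMPC (−1.43, SE 0.13, adjusted p = 1.4e-09, and then 1.47, SE 0.13, adjusted p = 4.8e-10). At the start of Ppargc1a, a coactivator that drives mitochondrial biogenesis, accessibility fell from 11.6 RPPM in nB to 3.43 in GCB and 0.685 in BMPC (−1.51, adjusted p = 0.0018, and −2.97 from nB to BMPC, adjusted p = 1.8e-08). A region 8463 bp from the start of Tfam, which packages and transcribes mitochondrial DNA, fell from 39.6 to 12.5 and 6.67 RPPM (−1.60 and −2.41). The start of Cyc1, cytochrome c1 of complex III, which the choice by name leaves out, fell from 26.4 RPPM in nB to 12.4 in GCB (−1.05, SE 0.18, adjusted p = 2.6e-05). In the opposite direction a region 3334 bp from the start of Ttc19, a factor for complex III, rose from 0.188 RPPM in nB to 4.78 in GCB and 26.7 in BMPC (2.31 and 4.57), and one 338 bp from the start of Sco1, a copper chaperone of complex IV, from 0.556 to 4.75 and 11.1 RPPM (1.89 and 2.97).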

How the data were processed

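The labels gave each ATAC-seq library its cell type and genotype. Another labelled sample, KO BMPC replicate 3, was not analysed here. The promoter that drives Cre and 1 of the member genes are not reported here by name. After trimming, the authors aligned reads to mm9 (Bowtie) and called peaks per sample (MACS2, q-value of 0.01). The peaks were joined into regions and each was annotated with its nearest start. The authors deposited RPM values (called RPPM), the reads of a region scaled to 1000000 reads in all regions of that library. The submitters' notes list Bowtie 1.1.1, Picard 1.127, MACS2 2.1.0.20140616 and edgeR 3.12.1. The authors' own columns for 9 comparisons (log2 fold changes, p-values, FDR) were not used.

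Of the 1058832 values, 100% were whole multiples of 1 read within 0.01 reads, so reads were recovered. The main test was limma 3.58.1 (R 4.3.3) on log2(RPPM + 1), with 6 group means fitted to all 16 libraries together, the variance trend on, and p-values adjusted over all 66177 regions. Calls needed an adjusted p not above 0.01 and a log2 fold change of 1 or more in size. Labels name mice or pools for replicates, and p-values rest on the spread between them, pooled over the 6 groups. GCB replicates correlated less, at r = 0.870 to 0.935 on log2(RPPM + 1), than nB and BMPC replicates, at 0.973 to 0.980. P-values of comparisons with GCB thus rest in part on the tighter spread of the other cell types. The code was tested on simulated data. Alternatives were pseudocounts of 0.1 and 5 RPPM, a minimum mean of 1 RPPM, TMM scaling, quantile normalization, scaling to reads outside chrM, the compared groups only, regions within 1000 bp of a start, each library left out, a replicate block, and edgeR 4.0.16 and DESeq2 1.42.0 on the recovered reads, where the quasi-likelihood test is a count test of those reads. Ratios of few reads carry 95% exact intervals, and these and the floor of 3 reads cover counting error only, since the reads carry no molecular identifiers and may be copies of the same molecule. Sequences are mm9 reference sequence, with exons of GENCODE vM1 removed from promoters. Tables were read with Python 3.11.15, numpy 2.4.6, pandas 2.3.3 and scipy 1.17.1 and drawn with matplotlib 3.10.9.

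The members and gene lists were chosen with earlier results of these data known. Regions named were those called in a comparison, or its 12 largest where over 12 were called, the start region with the highest mean in each gene group, the 3 smallest p-values between genotypes in each cell type, the isoform families, the Sdh genes, and up to 5 genes of the other pathway lists with the largest change. Called regions beyond the 12 largest (Cox5b, Uqcr11, Cox5a, Atp5d and Atp5h), examples that passed an adjusted p of 0.05, the levels per kilobase and the printed sequences were chosen after their values were seen.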

Additional observations from a re-analysis of the deposited data

Results flagged for a closer look

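Among 65 regions checked in the 4 KO GCB libraries, the only group large enough for the check of a library far from the others, 2 were picked out, where chance gives about 1 in 20. At the Sdhb start, KO GCB replicate 1, the shallowest library with 907959 reads, gave 29.7 RPPM against 45.8, 47.3 and 45.4 in the others. At the Cox5a start, KO GCB replicate 2 gave 21.0 RPPM against 16.5, 15.8 and 16.1.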

How the results depend on the processing

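No called region changed direction under any alternative run. For the 127 regions together, the called counts from nB to GCB, nB to BMPC and GCB to BMPC were 15, 16 and 18 in C and 18, 14 and 21 in KO mice. A pseudocount of 5 RPPM gave 8, 8 and 7 and 7, 8 and 7, and regions within 1000 bp of a start, which are fewer, gave 8, 4 and 8 and 11, 4 and 9. Leaving out 1 library gave 15 to 17, 14 to 17 and 14 to 20 in C and 14 to 21, 9 to 15 and 14 to 23 in KO mice, the 9 without KO BMPC replicate 2. Median log2 fold changes moved from 0.37 to 0.24 with quantile normalization and 0.28 with scaling outside chrM for GCB to BMPC in C mice, and from 0.34 to 0.22 and 0.25 in KO mice. From nB to GCB in KO mice the median moved from −0.18 to −0.27 with TMM scaling, −0.28 with DESeq2 and −0.29 within 1000 bp, and in C mice from −0.15 to −0.28 within 1000 bp. The cause was not tested. Between genotypes, 1 region was called in BMPC by either edgeR test and 0 by the others, and the interactions stayed at 0 called. Of 2889 values of 111 named results under the alternatives, 2682 kept their side of the threshold, 205 no longer passed and 2 newly passed, both at the Ndufa4 intron in BMPC.

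C and KO GCB share the pool names F2 and M1. Deviations of same-named pools from their group means correlated at r = 0.04 and 0.06 only, over 2 pairs. With 2 C pools, the C deviations are mirror images, so both values rest on the same C difference and cannot exclude a pairing. The names were not taken to pair the libraries. With a replicate block for the pools, 0 regions were called between genotypes in GCB, at a median log2 fold change of −0.0018, and Cox6c stood at 0.83. The depth of the GCB libraries, 907959 to 2280954 reads, limits regions of a few RPPM, which hold a few reads there.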
